A study of Arabidopsis thaliana with 6 samples.

Results

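Photosystem I is the chlorophyll-protein complex of the thylakoid membrane that passes electrons from plastocyanin to ferredoxin in the light. Its genes are divided between chloroplast and nucleus, and in Arabidopsis the chloroplast genome holds psaA, psaB, psaC, psaI and psaJ. PsaA and PsaB form the heterodimeric reaction centre core, PsaC carries the terminal iron-sulfur clusters on the stromal face, and PsaI and PsaJ are small membrane-spanning subunits at the edge of the core. Chloroplast genes are transcribed largely in groups with their neighbours, by a bacterial-type RNA polymerase whose core subunits are plastid-encoded and by nuclear-encoded phage-type polymerases. The 5 photosystem I genes were taken by symbol from the 69 plastid-encoded genes that have a named probe set on the array, which names 13350 genes in all on 22746 non-control probe sets. Each has 1 probe set, and 4 of the 5 passed the filter on dim signals. psaA passed through its wild-type arrays, with signals of 286 and 387 there against 20.6 to 87.8 on the other arrays. The probe set of psaC lay below that filter and was not tested, so its values are given as a description.

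Cotyledons of Arabidopsis thaliana, ecotype Col-0, were compared between 3 genotypes with 2 arrays each. These were wild-type plants, the single mutant sicy-192, and a double mutant, sicy-192 gun1-101. All plants were 4 days old and had been raised on MS medium that held 100 mM sucrose, under 16 h of light at 25 °C (100 µmol per m2 per s) and 8 h of dark at 22 °C. In sicy-192 an invertase of the plastid is known to carry a gain-of-function mutation. The second allele, gun1-101, affects GUN1, a plastid pentatricopeptide repeat protein that acts in signalling to the nucleus. The double mutant carries sicy-192 throughout, and without a gun1-101 single mutant among the groups no interaction could be tested.

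Values are linear signal intensities scaled to a common level on each array, given as mean ± SD of 2 arrays. Changes are differences of log2(signal + 16) with the standard error (SE) of the limma fit, and a call is a Benjamini-Hochberg adjusted p under 0.05 over all 14785 probe sets tested. The added 16 understates the change of dim probe sets, and signals of different probe sets have no common scale. Across those probe sets the replicate arrays correlated at 0.980 (wild-type), 0.979 (sicy-192) and 0.983 (double mutant). The 3' probe set of bioB, a bacterial control RNA, read 313 to 391 on replicate 1 arrays and 51.6 to 68.8 on replicate 2 arrays. Some of the changes below are therefore also given within each replicate number. No probe set was named for GUN1 or for the plastid invertase gene INV-E, and the genotype labels were therefore not checked on the mutated genes. As a check of tissue, 3 of 11 listed markers were named. The green-tissue gene RCA had means of 30842 (wild-type), 15230 (sicy-192) and 22201 (double mutant), with log2 changes of -1.01 (adjusted p = 0.0189, limma) and then 0.54 (adjusted p = 0.160). PRK, the other green-tissue gene, had means of 20249, 3332 and 8733, with -2.60 (adjusted p = 3.34e-05, limma) and then 1.39 (adjusted p = 0.000899). The pollen marker AT5G45880 stood at 8.60, 2.73 and 12.7 in the same order. The part of such shifts in green-tissue markers in the results below was not tested. In bulk RNA, fewer plastids or green cells cannot be told apart from less RNA in each.

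All 5 genes had lower signals in sicy-192 than in wild-type and lower ones again in the double mutant, with no overlap of the arrays between any of the groups. In sicy-192 the mean signal was between 15.6% (psaJ) and 74.7% (psaC) of wild-type. In the double mutant it was 6.37% for psaB, 8.28% for psaJ and 13.1% for psaI, while psaA on 1 array and psaC on both were at the level of bacterial control probe sets, so that only bounds are given for them. The larger log2 difference lay between wild-type and sicy-192 for psaJ, and between sicy-192 and the double mutant for psaB, psaC and psaI. No test was made of that division.

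**Figure D1:**
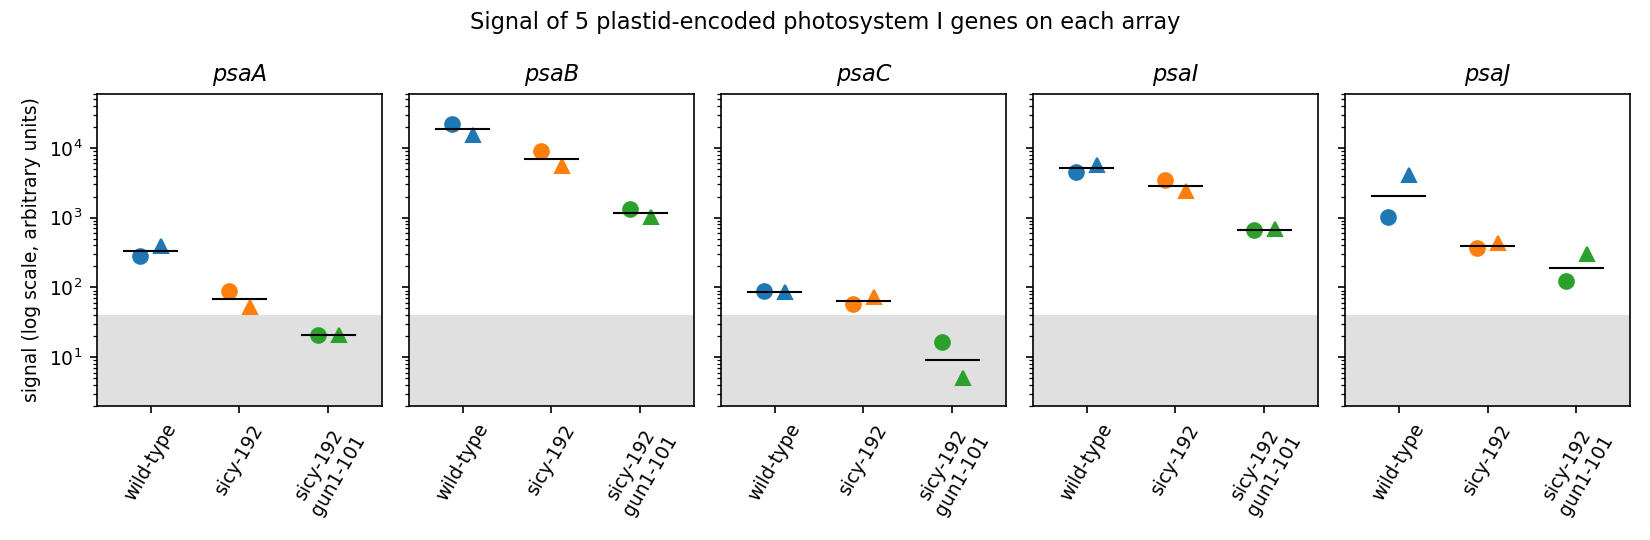
Signal of each plastid-encoded photosystem I gene (log axis) on every array, by genotype, with circles for replicate 1, triangles for replicate 2 and a black line for the geometric mean. The grey band is the range of 27 probe sets for bacterial RNAs, which reaches up to 38.6. In every panel the arrays of the 3 genotypes stand apart in the order wild-type, sicy-192, double mutant. The double-mutant arrays of psaA and psaC lie inside the band, which pools all arrays. On double-mutant replicate 2 psaA (20.6) was just above that array's own highest control (19.6).

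The first comparison, sicy-192 with wild-type, addresses what the sicy-192 mutation changes. Of the 4 tested photosystem I genes, 4 fell and 0 rose by limma (0 also at an unadjusted p under 0.05, here and in the comparisons that follow), against 9.21% of all tested probe sets called lower and 13.8% called higher. The median change of the 5 genes was -1.39, where that of all tested probe sets was 0.16. For all 5 both sicy-192 arrays read below both wild-type arrays, as they did for 20.6% of all probe sets. psaA counts among the 4 tested only through its brighter wild-type arrays, here and in the third comparison. It was called lower with no filter as well.

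psaA, for one of the paired subunits of the reaction centre core, had signals of 286 and 387 in wild-type and 87.8 and 52.7 in sicy-192. The sicy-192 arrays were clearly the dimmer pair, and the groups did not overlap. The mean went from 336 ± 71.3 to 70.2 ± 24.9, and the log2 change of -2.05 ± 0.28 (SE) was called (adjusted p = 0.000961, limma). It was -1.54 within replicate 1 and -2.55 within replicate 2.

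psaB, for the other subunit of the core, had signals of 21945 and 15259 in wild-type and 8857 and 5473 in sicy-192. On each side replicate 2 was the lower array, by less than the distance between the genotypes. The mean went from 18602 ± 4728 to 7165 ± 2393, a log2 change of -1.39 ± 0.26 (adjusted p = 0.00470, limma), with -1.31 and -1.48 within replicates 1 and 2.

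psaC, for the subunit that binds the terminal iron-sulfur clusters, had signals of 88.6 and 84.4 in wild-type and 57.7 and 71.6 in sicy-192. The groups were separate but close, and the log2 difference of -0.35 was the smallest of the 5. When all probe sets were tested with no filter, it was not called (adjusted p = 0.545, limma).

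psaI, for a small membrane subunit that lies next to the docking site of the antenna of photosystem II, had signals of 4525 and 5708 in wild-type and 3426 and 2384 in sicy-192. The brighter sicy-192 array came near the dimmer wild-type array without reaching it. With means of 5117 ± 837 and 2905 ± 737, the log2 change was -0.83 ± 0.19 (adjusted p = 0.0143, limma), and -0.40 and -1.25 within replicates 1 and 2. Leaving out wild-type replicate 2 ended the call (-0.66, adjusted p = 0.0674, limma), and so did leaving out sicy-192 replicate 2 (-0.57, adjusted p = 0.0875, limma).

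psaJ, for a small subunit beside the plastocyanin-docking subunit PsaF, had signals of 1031 and 4033 in wild-type and 361 and 427 in sicy-192. Most of its spread lay in wild-type, where replicate 2 was far brighter than replicate 1, and the dimmer wild-type array was still above both sicy-192 arrays. The mean went from 2532 ± 2123 to 394 ± 46.7, a log2 change of -2.33 ± 0.55 (adjusted p = 0.0154, limma), with -1.47 within replicate 1 and -3.19 within replicate 2. Its size rested on the wild-type arrays, at -1.36 without replicate 2 (adjusted p = 0.0404, limma) and -3.31 without replicate 1. It was no longer called when sicy-192 replicate 1 was left out (adjusted p = 0.0519, limma) or when no filter was used (adjusted p = 0.0502, limma).

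**Figure D2:**
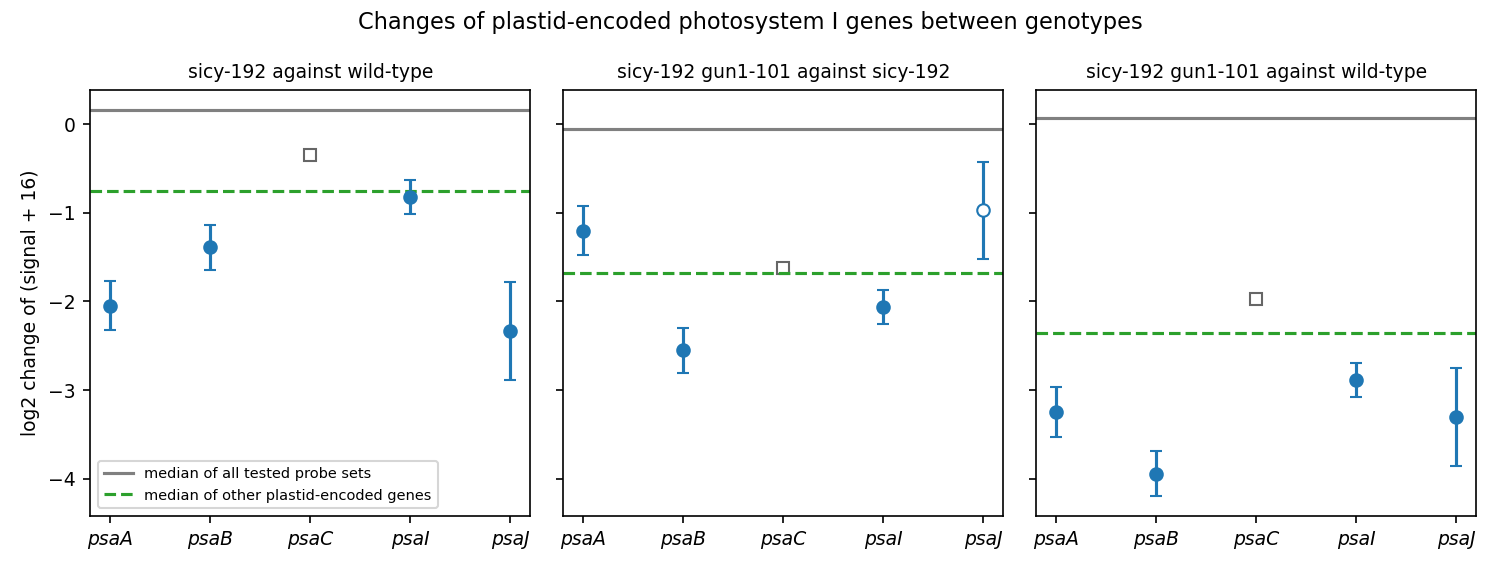
Log2 change of each photosystem I gene in the 3 comparisons, with the SE of the limma fit as bars. Filled points were called at an adjusted p under 0.05, open points were not, and psaC, which was not tested, is drawn open with no bar. psaA and psaJ lie furthest from 0 in sicy-192 against wild-type (-2.05 and -2.33), and psaB lies at -2.55 in the double mutant against sicy-192.

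The second comparison, the double mutant with sicy-192, addresses what changes when GUN1 is mutated as well in plants that carry sicy-192. Without a GUN1 single mutant, whether the same changes would occur in the absence of sicy-192 could not be tested. Of the 4 tested photosystem I genes, 3 fell further and 0 rose, against 11.2% of tested probe sets called lower and 9.54% called higher. The median change of the 5 genes was -1.63, and that of all tested probe sets -0.05. Both double-mutant arrays read below both sicy-192 arrays for all 5 genes and for 29.9% of all probe sets. On the same arrays the control probe set of 25S ribosomal RNA read 452 and 1763 for wild-type, 1378 and 1173 for sicy-192, and 7778 and 8361 for the double mutant. The primer of the reverse transcription is not given in the sources used here, and plastid and ribosomal RNAs lack the long poly(A) tail of nuclear messengers. Whether this higher ribosomal signal has a part in the lower plastid signals was not tested.

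The reaction centre gene psaB was called with each array left out in turn. Its signals of 8857 and 5473 in sicy-192 stood against 1342 and 1027 in the double mutant. Both double-mutant arrays were far below either sicy-192 array. With a double-mutant mean of 1185 ± 223, the log2 change was -2.55 ± 0.26 (adjusted p = 0.000372, limma), and -2.71 and -2.40 within replicates 1 and 2.

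Its partner psaA had signals of 20.7 and 20.6 in the double mutant, after 87.8 and 52.7 in sicy-192. The 2 double-mutant arrays were almost alike, and the sicy-192 arrays were both above them. The log2 change was -1.20 ± 0.28 (adjusted p = 0.0152, limma). The call ended when sicy-192 replicate 1 was left out (-0.90, adjusted p = 0.110, limma), and likewise without double-mutant replicate 1 (adjusted p = 0.0581, limma) and without double-mutant replicate 2 (adjusted p = 0.0651, limma). Its size depended on the added constant, at -1.67 with 1 and -0.65 with 64 in place of 16. On 1 of the 2 double-mutant arrays psaA was also no brighter than the highest of the 27 bacterial control probe sets, which reached 38.6 and 19.6 there. Taking the higher of that signal and its own on each array, psaA was at least 2.41-fold lower than in sicy-192, a bound chosen after the data were seen.

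For psaC the double-mutant signals of 16.3 and 5.01 were at or under the highest bacterial control on both arrays. They compare with 57.7 and 71.6 in sicy-192, which were above those controls. The log2 difference was -1.63, called when all probe sets were tested with no filter (adjusted p = 0.0210, limma). Against the bacterial controls of the double mutant, psaC was at least 2.34-fold lower than in sicy-192.

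psaI fell from signals of 3426 and 2384 in sicy-192 to 663 and 681 in the double mutant. The double-mutant arrays were close together and far below the others. The mean there was 672 ± 12.9, and the log2 change of -2.06 ± 0.19 (adjusted p = 0.000252, limma) was called without any 1 of the 6 arrays as well.

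psaJ was the tested member without a call in this comparison. Its signals were 361 and 427 in sicy-192 and 123 and 297 in the double mutant, where replicate 2 was again the brighter array. The groups were separate, but the log2 difference of -0.97 ± 0.55 did not pass (adjusted p = 0.247, limma). It was -1.44 within replicate 1 and -0.50 within replicate 2. With the replicate number as a block it was called lower (-0.97 ± 0.28, adjusted p = 0.0179, limma), and 4 of the 4 tested members then were. A block takes out only a shift common to the groups. For psaJ replicate 2 minus replicate 1 was 1.95 (wild-type), 0.23 (sicy-192) and 1.17 (double mutant). That smaller SE therefore does not measure psaJ's own spread.

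The third comparison, the double mutant with wild-type, shares its arrays with the other 2 and adds up their differences. Of the 4 tested photosystem I genes 4 were called lower and 0 higher, against 12.8% and 17.3% of all tested probe sets, and for 26.7% of all probe sets both double-mutant arrays read below both wild-type arrays. psaB had a log2 change of -3.94 ± 0.26 (adjusted p = 2.38e-05, limma), to 6.37% of its wild-type mean. psaA had -3.25 ± 0.28 (adjusted p = 0.000107, limma), and by the bacterial controls was at least 11.8-fold lower. With -2.89 ± 0.19 (adjusted p = 2.62e-05, limma), psaI kept 13.1% of its wild-type mean. The change of psaJ was -3.31 ± 0.55 (adjusted p = 0.00269, limma). psaC differed by -1.98, at least 3.14-fold by the bacterial controls, and was called with no filter (adjusted p = 0.00822, limma).

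Listed neighbours of the photosystem I genes on the chloroplast genome were examined next, 15 genes in all, with 1 region for each cluster. On the side of psaJ away from rpl33 lie petG and petL, which were not on that list and are given with psaJ. In sicy-192 against wild-type 10 of the 15 fell, in the double mutant against sicy-192 13 of 15, and in the double mutant against wild-type 14 of 15, with medians of -0.88, -1.58 and -2.54. None was called higher by limma, nor had a rise at an unadjusted p under 0.05. These regions are described beside the photosystem I genes, and no test of a difference between a gene and its neighbour was made.

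The region of psaA and psaB holds rps14, for a ribosomal protein, which is cotranscribed with them, and ycf3, for a photosystem I assembly factor. The signals of rps14 were 90.5 and 81.0 for wild-type, 48.4 and 58.5 for sicy-192, and 64.3 and 49.8 for the double mutant. Its double-mutant arrays overlapped those of sicy-192, and no change was called: -0.55 (adjusted p = 0.154, limma), 0.07 (adjusted p = 0.881) and -0.48 (adjusted p = 0.189) in the 3 comparisons in order. psaB and psaA, on the same transcription unit, were called lower in all 3. rps14 was dim throughout, while bacterial controls reached 38.6 and 19.6 on the double-mutant arrays. It had little room for a further fall, and its 0.07 does not show that its RNA was kept. ycf3 had signals of 2230 and 2287 for wild-type, 2201 and 1596 for sicy-192, and 256 and 518 for the double mutant. It had no call in sicy-192 (-0.27, adjusted p = 0.524, limma) and fell by 2.31 on the log2 scale from sicy-192 to the double mutant (adjusted p = 0.000830).

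psaC lies among the ndh genes, which encode subunits of the NADH dehydrogenase-like complex that associates with photosystem I. Of the 7 genes of its region 4 fell in sicy-192 and 7 of 7 from sicy-192 to the double mutant. The pair on either side of psaC, ndhD (-0.81, then -1.73) and ndhE (-1.06, then -1.88), fell in both steps. ndhG (-0.96) and ndhI (-0.66) also fell in sicy-192, while ndhA (-0.88, adjusted p = 0.0850), ndhH (-0.57, adjusted p = 0.229) and rps15 (0.39, adjusted p = 0.378) did not pass in limma. In the double mutant against sicy-192 these last 5 genes all fell, with log2 changes from -1.31 (ndhI) to -2.25 (rps15). On double-mutant replicate 1 ndhE (26.3) and ndhH (18.7) were under the highest bacterial control (38.6), so the size of their falls is not exact.

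psaI lies in a cluster with accD (a subunit of acetyl-CoA carboxylase), ycf4 (a photosystem I assembly factor), cemA (an envelope membrane protein) and petA (cytochrome f). All 4 fell in each of the 3 comparisons. From wild-type to sicy-192 the log2 changes were -1.43 for accD, -0.80 for ycf4, -1.51 for cemA and -1.05 for petA, where psaI had -0.83. From sicy-192 to the double mutant they were -0.78, -1.39, -2.08 and -2.19 in the same order, where psaI had -2.06.

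psaJ lies beside rpl33 and rps18, for ribosomal proteins. The signals of rpl33 were 3334 and 5067 for wild-type, 748 and 564 for sicy-192, and 214 and 551 for the double mutant. Like psaJ it was called lower in sicy-192 (-2.63, adjusted p = 0.00114, limma) and not called from there to the double mutant (-0.88, adjusted p = 0.124). rps18 was called in both steps, with -1.42 and -0.88 (adjusted p = 0.0382 for the second, limma). The difference of replicate 2 minus replicate 1 for psaJ was 1.95 (wild-type), 0.23 (sicy-192) and 1.17 (double mutant) on the log2 scale, and 0.60, -0.40 and 1.30 for rpl33. petL and petG, on the side of psaJ away from rpl33, and rpl20, beyond rps18, were singled out after their values were seen. Between the same arrays petL differed by 2.11, 0.90 and 1.85, petG by 1.32, 1.36 and 1.05, and rpl20 by 1.11, -0.31 and 0.80. Neither petL (-0.88, adjusted p = 0.398, limma, then -1.52, adjusted p = 0.162) nor petG (0.54, adjusted p = 0.502, limma, then -0.86, adjusted p = 0.299) was called in either step. In the double mutant against wild-type petL was called lower (-2.40, adjusted p = 0.0308, limma) and petG was not (-0.32, adjusted p = 0.685). On double-mutant replicate 1 petL (29.8) was under the highest bacterial control (38.6).

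**Figure D3:**
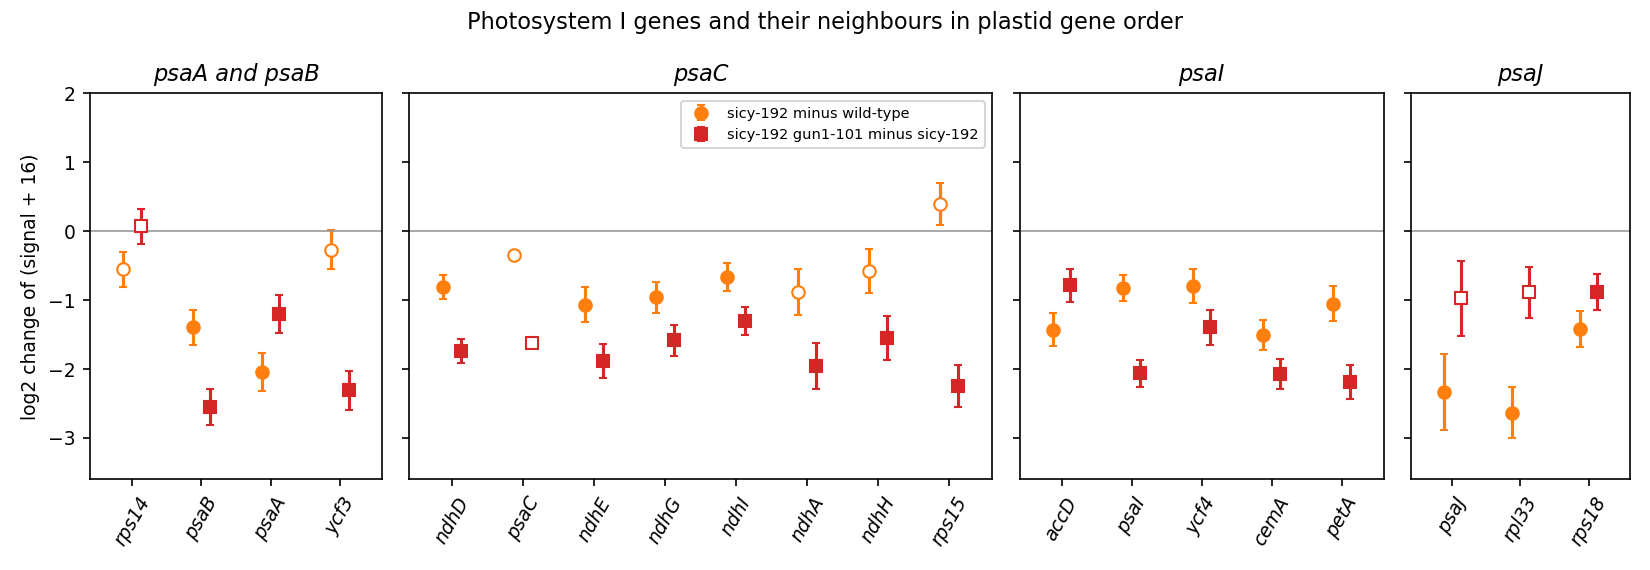
Log2 change of the photosystem I genes and of their neighbours on the chloroplast genome, grouped by region, in the first and the second comparison. Filled points were called and open points were not, with psaC not tested. In the double mutant against sicy-192 rps14 lies at 0.07 while psaA, psaB and ycf3 lie at -1.20, -2.55 and -2.31. rps14 is dim in sicy-192 (signals of 48.4 and 58.5), with little room to fall.

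Other plastid-encoded genes were called lower as well, a minority of them in sicy-192 and most of them in the double mutant. Of the 62 others tested, 27 fell and 3 rose in sicy-192 (median -0.75), 53 fell and 0 rose by limma's call from sicy-192 to the double mutant (median -1.68), and 57 fell and 0 rose by the same call from wild-type to the double mutant (median -2.36). At an unadjusted p under 0.05 there were 0 rises in the last pair as well, while in sicy-192 against wild-type 34 of the 62 were lower and 4 higher. In sicy-192 the photosystem II (psb) genes had a median of -1.55, with 10 of 15 lower and 1 higher, against 0 called by limma of 6 genes of ATP synthase (median -0.36, with 1 lower at an unadjusted p under 0.05). Between sicy-192 and the double mutant all 6 ATP synthase genes were lower (median -2.0), as were 9 of 9 ndh genes (-1.73), 11 of 15 psb genes (-1.35) and 3 of 6 genes of the cytochrome b6f complex (pet, -1.09). Ribosomal protein genes had 4 of 15 lower in sicy-192 (medians -0.56 for rps and -0.33 for rpl) and 13 of 15 in the second step (-1.60 and -2.08).

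To ask whether a photosystem I gene moved apart from the rest of the plastid genes, its value was taken relative to the median of the 62 others on the same array. That array median differed by -1.29 between sicy-192 and wild-type and by -1.56 between the double mutant and sicy-192, which are not the medians of the single genes' changes given above. On this scale 0.791%, 0.203% and 0.115% of all tested probe sets were called lower in the 3 comparisons in order. This is because most nuclear genes then count as higher, and the adjusted p is close to the unadjusted one. The SE here follows the trend over probe sets of like mean value, not the gene's own arrays. It does not measure a member's own replicate spread, and the calls on this scale rest on that trend.

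Relative to the other plastid genes, psaJ was the member called lower in sicy-192 (-1.05 ± 0.38, adjusted p = 0.00691, limma). Its values were -1.39 and 0.69 in wild-type and -1.70 and -1.10 in sicy-192, so the arrays overlapped. The call rested on wild-type replicate 2, with -0.01 (adjusted p = 0.988, limma) without it, and it also ended when sicy-192 replicate 1 was left out (-0.75, adjusted p = 0.138). psaA had -0.76 ± 0.43 (adjusted p = 0.0869), psaB -0.11 (adjusted p = 0.793) and psaI 0.46 (adjusted p = 0.240), none of which was called by limma, and psaC, not tested, had 0.93.

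From sicy-192 to the double mutant the member called relative to the other plastid genes was psaB (-0.99 ± 0.39, adjusted p = 0.0123, limma). Its relative values were 3.0 and 2.6 for wild-type, 2.86 and 2.53 for sicy-192, and 2.17 and 1.24 for the double mutant. Wild-type and sicy-192 overlapped, and both double-mutant arrays were below them. Leaving out sicy-192 replicate 1 ended the call (-0.83, adjusted p = 0.133, limma), as did leaving out double-mutant replicate 2 (-0.52, adjusted p = 0.10). Against wild-type psaB had -1.10 ± 0.39 (adjusted p = 0.00468, limma), a call that ended when wild-type replicate 1 was left out (-0.90, adjusted p = 0.133). The other tested members had relative changes of 0.36 (psaA, adjusted p = 0.415), -0.50 (psaI, adjusted p = 0.192) and 0.59 (psaJ, adjusted p = 0.124) in the second comparison.

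**Figure D4:**
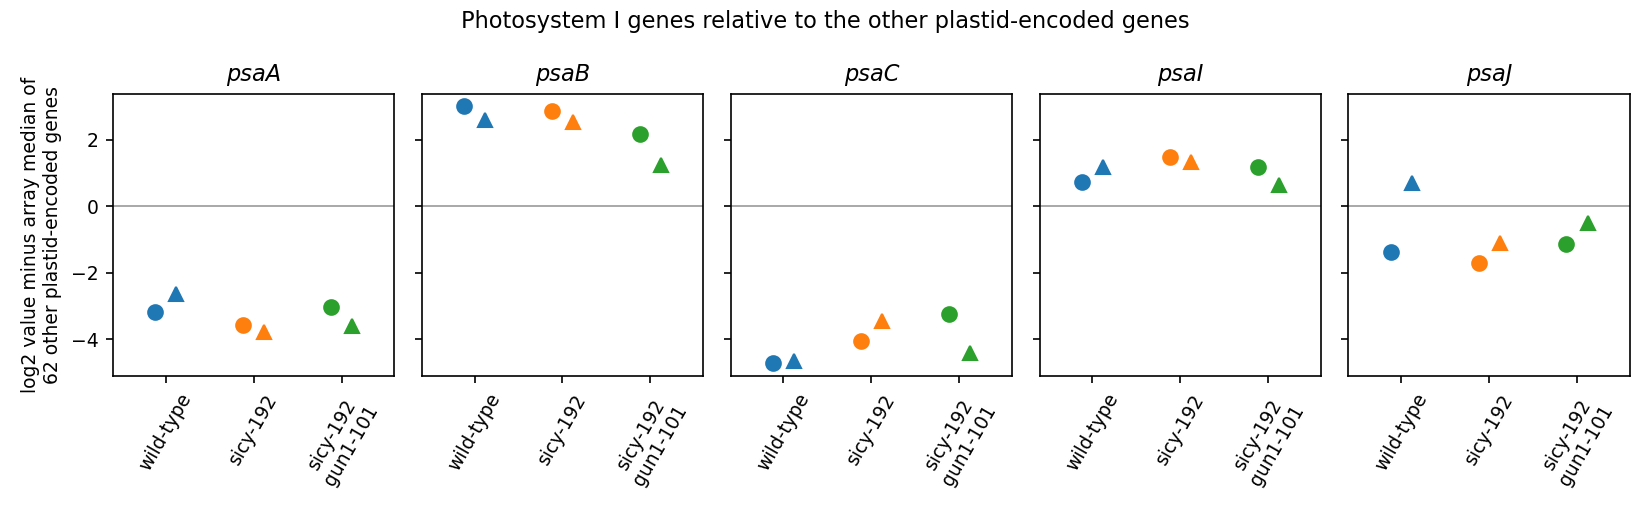
Log2 value of each photosystem I gene minus the median of the 62 other tested plastid-encoded genes on the same array, by genotype, with circles for replicate 1 and triangles for replicate 2. psaB in the double mutant (2.17 and 1.24) lies below its other arrays, and the wild-type arrays of psaJ (-1.39 and 0.69) lie furthest apart.

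Nuclear-encoded parts of photosystem I could be followed for 2 of 13 subunits. In the annotation used, no probe set was assigned to a single 1 of the 6 antenna (LHCA) genes or the 6 electron donor and acceptor genes listed. Whether probe sets with several genes or none listed measure them was not examined. PSAE-1 (AT4G28750), for a stromal subunit that helps dock ferredoxin, had signals of 31644 and 19079 for wild-type, 11392 and 8512 for sicy-192, and 18664 and 14133 for the double mutant. It fell in sicy-192 (-1.32, adjusted p = 0.00635, limma), and its difference between sicy-192 and the double mutant did not pass (0.72, adjusted p = 0.0784). PSAN, for a subunit on the lumen side, had signals of 23652 and 17203, then 6596 and 5446, then 12533 and 11575. It fell in sicy-192 (-1.75, adjusted p = 0.000251, limma) and rose from there to the double mutant (1.0, adjusted p = 0.00561). In that step psaB and psaI fell, so the double-mutant arrays of PSAN lay above its sicy-192 arrays and those of psaB and psaI below theirs.

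Of 9 assembly genes of photosystem I, 4 were named. HCF101, for a scaffold protein of iron-sulfur cluster assembly, fell in sicy-192 (-1.25, adjusted p = 0.000253, limma) and had no call from there to the double mutant (0.28, adjusted p = 0.173). PYG7 (AT1G22700) had no call in sicy-192 (-0.41, adjusted p = 0.0862, limma) or in the second step (0.36, adjusted p = 0.135). The other two, ycf3 and ycf4, are plastid-encoded and were described with their neighbours.

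Genes of plastid transcription were named for 5 of 12, and 4 were tested. In sicy-192 the tested subunit genes of the plastid-encoded polymerase were not lower, with rpoC1 (1.11, adjusted p = 0.00118, limma) and rpoC2 (1.42, adjusted p = 0.000555) higher and rpoA without a call (0.08). From sicy-192 to the double mutant rpoC1 (-2.44), rpoC2 (-2.83) and rpoA (-1.66) were all called lower, as were psaA, psaB and psaI. RPOTMP (AT5G15700), for a phage-type polymerase, had no call in either step (0.26, adjusted p = 0.382, and 0.32, adjusted p = 0.298, limma).

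The genes whose pattern over the 6 arrays was most like each photosystem I gene were ranked by the root mean square difference of log2 values centred on each gene's mean, among 8025 tested and named genes. For psaB these were ndhK (0.196, Pearson's r 0.997), cemA (0.226) and ccsA (0.264), all plastid-encoded. psaI was nearest to rps4 (0.237), atpF (0.241) and ndhG (0.251), plastid-encoded as well. Nearest to psaA were the nuclear gene AT1G23140 (0.212), then rbcL (0.277) and psbD (0.327). The double-mutant values of psaA are at or near the bacterial controls and compressed by the added 16, so they do not settle this order. For psaJ the first was its neighbour rpl33 (0.449, Pearson's r 0.958), then AT5G62280 (0.492) and psbA (0.572). For psaC, whose double-mutant values are at or under the bacterial controls and compressed by the added 16, the rule gave the nuclear genes AT5G45650 (0.217), AT3G21950 (0.222) and AT4G28310 (0.262), an order that those values do not settle. Among the photosystem I genes themselves psaB differed from psaI by 0.514 and from psaJ by 1.10, and psaI from psaJ by 0.881. All these values share the same 6 arrays and are descriptions.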

How the data were processed

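Each probe set has 1 deposited intensity per array, on a linear scale, from 1-colour Affymetrix arrays hybridised with biotin-labelled total RNA, per the labels. The submitters' processing notes name GCOS, with no version; the algorithm, annotation and genome build are not given in the sources used here. The columns as deposited all average 500 once 2% of values is trimmed from either end.

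Arrays were rescaled to that mean, 16 was added and log2 taken. Of 22746 non-control probe sets, 13513 had 1 listed gene, 503 several and 8730 none. Probe sets above the 35th percentile of mean log2 value (14785) entered limma 3.58.1 under R 4.3.3 (lmFit, eBayes with a trend, two-sided, all 6 arrays, 3 residual and 6.27 prior degrees of freedom); 7961 dimmer ones were left out. Those degrees of freedom are of the main fit alone, and fits on the relative scale or with a block have their own. The fit was tested on simulated data. The labels call the 2 arrays of a group biological replicates without saying whether plants were raised separately. The p-values then reflect only how far these samples differ, which may be technical, and the number of arrays limits precision.

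Members and gene lists were chosen with earlier results of these data known. The text names the members, up to 4 genes of each list with the largest change (all of lists of 6 or fewer tested), every listed neighbour, and the 3 genes nearest each member in pattern. Beyond these, petL, petG and rpl20 were added after their values were seen. Plastid genes were matched by symbol in the RefSeq table. Alternatives were other added constants, filters, normalizations, variance models, thresholds and array subsets, and the replicate number as a block.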

Additional observations from a re-analysis of the deposited data

How the results depend on the processing

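With 3 to 4, 2 to 4 and 3 to 5 members called lower in the 3 comparisons in order, and 0 called higher by limma, the counts stayed within 1.5 times of the main ones under the 17 alternatives other than centring on the other plastid genes, under which 1 member was called lower in each. Every member has a single probe set, so the choice of probe set could not be varied. The median change of the 5 genes in sicy-192 against wild-type was -0.99 with quantile normalization and ran from -1.74 to -1.05 when an array was left out. In the double mutant against sicy-192 it was -2.09 with an added constant of 1 and -0.82 with 64. In the double mutant against wild-type it was -2.81 with 64 and ran from -3.46 to -2.72 when an array was left out. psaA was not tested under the 50th percentile filter. Over all tested probe sets, sicy-192 against wild-type had a median of 0.16, or -0.03 after centring arrays on their median, and of its calls 60% were higher, 48.1% with quantile normalization and 31.4% with that centring.

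The labels do not say that a replicate number marks a shared batch. Differences between replicates correlated across probe sets at 0.436 (wild-type with sicy-192), 0.374 (sicy-192 with the double mutant) and 0.329 (wild-type with the double mutant). For psaJ that difference varied between the groups, and the SE of its call with a block does not measure its own spread. With the replicate number as a block, psaJ was called in the double mutant against sicy-192 (-0.97 ± 0.28, adjusted p = 0.0179, limma; 0.0179 to 0.737 over its alternatives), where 4917 probe sets were called, and 4, 4 and 4 members were called lower in the 3 comparisons.

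Centred on the other plastid genes, the sign turned for psaC (0.93) and psaI (0.46) in sicy-192 against wild-type, psaA (0.36) and psaJ (0.59) in the double mutant against sicy-192, and psaC (0.87) in the double mutant against wild-type; that scale measures a difference from genes that were themselves lower. The settings for this relative scale were chosen after seeing the data. On it, the sign of psaA turned with a constant of 1 (-0.069) in the second comparison and with 64 (0.46) in the third, and that of psaC with 64 (0.65) in the second and with 1 (-0.20) in the third. When an array was left out, psaB ran from -0.31 to 0.095 in the first comparison, psaC from -0.65 to 0.52 in the second, and psaI from -0.30 to 0.22 and psaJ from -1.50 to 0.58 in the third. Called relative to the other plastid genes were 1 member in each comparison, 0 to 2, 0 to 3 and 1 to 2 when an array was left out, 2 with a constant of 64 in the second and 2 with 1 in the third. These counts took calls in either direction. In the second comparison psaJ lay above the other plastid genes under every alternative of this scale (0.28 to 0.89). The cause of the changes in the photosystem I genes was not tested. Limits: psaC and, on 1 array, psaA lie at the level of bacterial controls in the double mutant, so their falls there are bounds. Of the genes beside them, ndhE, ndhH and petL lie at that level on double-mutant replicate 1.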
